A study of Rattus norvegicus with 16 samples.

Results

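In the rat hippocampus, 103 of 32883 genes were graded from CA1 through CA3, with the mean level in CA2 between those of its neighbours. Of these, 57 fell and 46 rose along the way from CA1 to CA3. Which of the groups was larger depended on the scaling of the libraries. The genes were chosen by their measured levels in the same libraries that are described here. A gene was taken when its highest CA mean was at least 10 CPM (the count divided by the library's column sum, taken without 2 abundant genes, and scaled to 1000000), when both steps, CA1 to CA2 and CA2 to CA3, went the same way by 1.4-fold to below 2-fold, and when its mean in the dentate gyrus (DG) was below 4 times the highest CA mean. The order and the steps among CA1, CA2 and CA3 are thus a description and are given without a test.

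Male Wistar rats aged 3 months were the source of all libraries, and no treatment or genotype separated the groups. Laser capture microdissection, which cuts chosen tissue out of a section under the microscope, collected the pyramidal layer of each CA subfield, together with the granular layer in DG, from 4 rats. Total RNA was sequenced from 4 libraries per subfield, 16 in all. Total counts ran from 3216512 to 11933279 per library, and 3 counts corresponded to 0.315 to 1.21 CPM, which covers counting error alone.

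Principal cells of the CA subfields are glutamatergic pyramidal neurons, and those of DG are granule cells. Granule cell axons, the mossy fibres, reach CA3, and CA3 axons reach CA1 through the Schaffer collaterals. CA2 lies between CA3 and CA1 and is known for synapses that resist potentiation under standard protocols. Some genes are known to mark 1 subfield with a sharp border, while others change by degrees along the pyramidal layer.

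CA2 replicates 2 and 4 differed by about as much as sampling noise gives (chi-square per degree of freedom 1.001), and DG replicates 2 and 4 by slightly more (1.04), while the other 22 pairs of libraries of 1 subfield ran from 2.80 to 43.5. Either pair entered as 1 sample, so that spreads and tests had n = 3 for CA2 and DG but n = 4 for CA1 and CA3. The selection itself used the mean of all 4 columns per subfield. Among the other pairs, CA3 replicate 3 gave the 2 highest values, 43.5 against replicate 1 and 41.5 against replicate 2. This library also had the highest share of its counts in the 2 abundant genes (31.1%).

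Levels of known subfield markers were compared between libraries. Symbols could be matched only through the study's own list of genes specific to 1 subfield in these data, so a matched marker was bound to be highest in its subfield, and the labels have no independent check here. The markers serve to compare libraries within a subfield. The CA1 marker used was Wfs1, a protein of the endoplasmic reticulum. Its level was 786 to 993 CPM in CA1 and 14.7 to 20.5 CPM in DG. In CA2 it was 65.9 CPM in replicate 1, 167 CPM in replicates 2 and 4 and 105.0 CPM in replicate 3. In CA3 it was 10.6, 129, 15.7 and 16.97 CPM in replicates 1 to 4. CA2 replicates 2 and 4 and CA3 replicate 2 therefore stood above the other libraries of their subfields in this CA1 marker.

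The CA2 list had 3 matched genes: Amigo2, an adhesion protein, Cacng5, an auxiliary subunit of AMPA receptors, and Ccdc3. Their sum was 260 CPM in CA2 replicate 1, 181 CPM in replicates 2 and 4 and 229 CPM in replicate 3, against 10.4 to 38.2 CPM in CA1, 25.4 to 29.7 CPM in CA3 and 5.41 to 5.94 CPM in DG. The repeated CA2 sample thus had the lowest sum of CA2 markers in its subfield and the highest Wfs1, although its Ccdc3 was above that of replicate 1. Within CA1, the CA2 marker sum was highest in replicate 2 and lowest in replicate 1. The 5 matched granule cell markers, Prox1, C1ql2, Dsp, Stxbp6 and Plk5, summed to 963 to 1094 CPM in DG, 34.1 to 53.7 CPM in CA3 and 19.3 to 22.1 CPM in CA1. In CA2 they summed to 23.2 CPM in replicate 1, 36.4 CPM in replicates 2 and 4 and 26.0 CPM in replicate 3, so that the repeated sample also had the highest sum of its subfield. Its Prox1 and C1ql2 were the highest of CA2, while Stxbp6, the most abundant of the list in CA2, was the lowest there. Markers of CA3, interneurons, glia, vessels and choroid plexus had no matched identifier and were not analysed here.

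The genes are known here by Ensembl identifier. A symbol could be paired with 288 identifiers of the table, all from the list of genes specific to 1 subfield, and 0 of the 103 graded genes were among them. Small steps between subfields keep a graded gene off such a list. Families, pathways and promoter sequences of the graded genes were therefore not analysed here, and 4 of the genes are described by identifier.

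Of the 32883 genes, 9647 reached 10 CPM in at least 1 CA mean. CA2 lay between CA1 and CA3 in 2936 genes that fell and 1860 that rose. Both steps were at least 1.4-fold in 171 falling and 121 rising genes, and both were also below 2-fold in 59 and 47. The DG limit removed 2 falling genes and 1 rising gene.

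**Figure D1:**
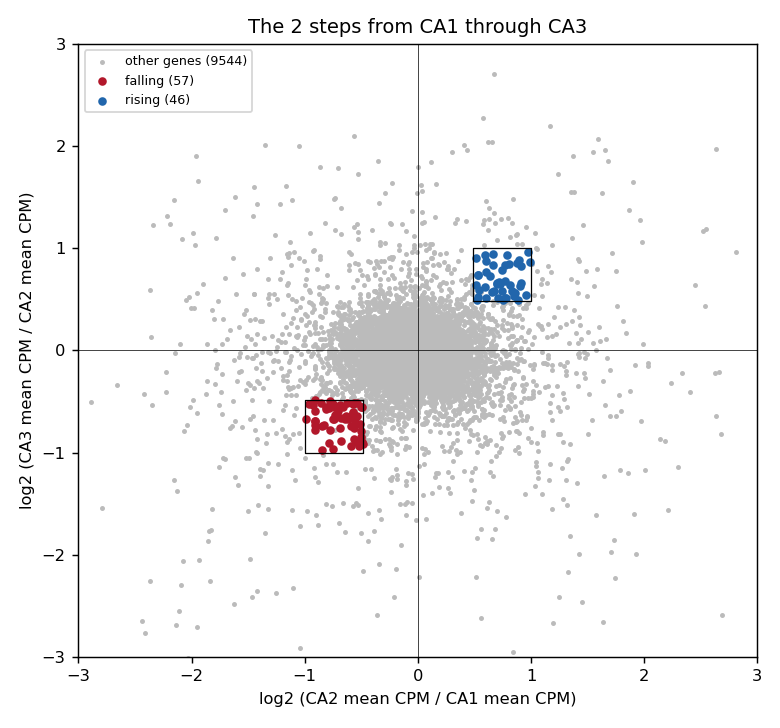
Each point is 1 of the 9647 genes whose highest CA mean was at least 10 CPM, with the log2 ratio of the CA2 mean to the CA1 mean on the x axis and that of the CA3 mean to the CA2 mean on the y axis. The squares mark steps of 1.4-fold to 2-fold, and hold the 57 falling genes at the lower left and the 46 rising genes at the upper right; 34 genes lie outside the axes.

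Genes with both steps within the limits were set beside other genes with the same range of total change. Near either end of that range only nearly equal steps can meet both limits, so nothing is read from their share. Among genes with CA2 in between and a CA1 to CA3 change of 1.96-fold to below 4-fold, 276 fell, and both steps were within the limits in 59 of them. In 128 of the others the larger step was that from CA1 to CA2, and in 89 that from CA2 to CA3. Of the 191 genes that rose by the same amount, 47 had both steps within the limits, 86 had the larger step from CA1 to CA2 and 58 from CA2 to CA3.

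For falling genes, the gene nearest inside and the gene nearest outside had a highest CA mean of 10.6 and 9.38 CPM, a smaller step of 1.402- and 1.399-fold, a larger step of 1.99- and 2.03-fold, and a DG mean of 2.70 and 6.05 times the highest CA mean. For rising genes the same values were 10.1 and 9.88 CPM, 1.404- and 1.395-fold, 1.993- and 2.011-fold, and 2.70 and 4.04 times. The nearest genes on either side of the floor and of the step limits were close in value, while at the DG limit they lay farther apart in both groups.

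The falling genes ranged from 10.6 to 2406 CPM in CA1, with a median of 37.2 CPM, and 20 of the 57 were at 100 CPM or more. Their median step was 1.61-fold from CA1 to CA2 and 1.59-fold from CA2 to CA3. CA1 exceeded CA3 by 2.07- to 3.55-fold, with a median of 2.57-fold. The larger step was that from CA1 to CA2 in 30 of the 57, so that neither step led throughout.

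The rising genes ranged from 10.1 to 792 CPM in CA3, with a median of 32.0 CPM, and 7 of the 46 were at 100 CPM or more. Their median step was 1.66-fold from CA1 to CA2 and 1.57-fold from CA2 to CA3. CA3 exceeded CA1 by 2.02- to 3.83-fold, with a median of 2.61-fold. The larger step was that from CA1 to CA2 in 30 of the 46.

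Single libraries were set against each other at each step. Every CA1 library was above every CA2 library in 50 of the 57 falling genes (13.5% of 17172 genes showed this), and every CA2 library above every CA3 library in 34 (9.11%). Both held in 31 (1.62%). For rising genes, every CA2 library was above every CA1 library in 40 of 46 (10.6% of all), every CA3 library above every CA2 library in 39 (7.13%), and both held in 36 (1.35%). The selection used these levels, so nothing is read from the difference to the other genes.

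With libraries of the same replicate number set side by side, CA1, CA2 and CA3 stood in falling order in 54, 50, 56 and 55 of the 57 genes in replicates 1 to 4, and in 47 genes in every replicate number. The rising order held in 45, 43, 45 and 46 of the 46 genes, and in 41 in every number. Replicate 2 had the fewest genes in order in both groups. The genes were selected on the means of these levels, so such an order follows largely from the choice and nothing is read from it. CA2 replicates 2 and 4, elsewhere 1 sample, entered here under both numbers, so these numbers are not separate samples.

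**Figure D2:**
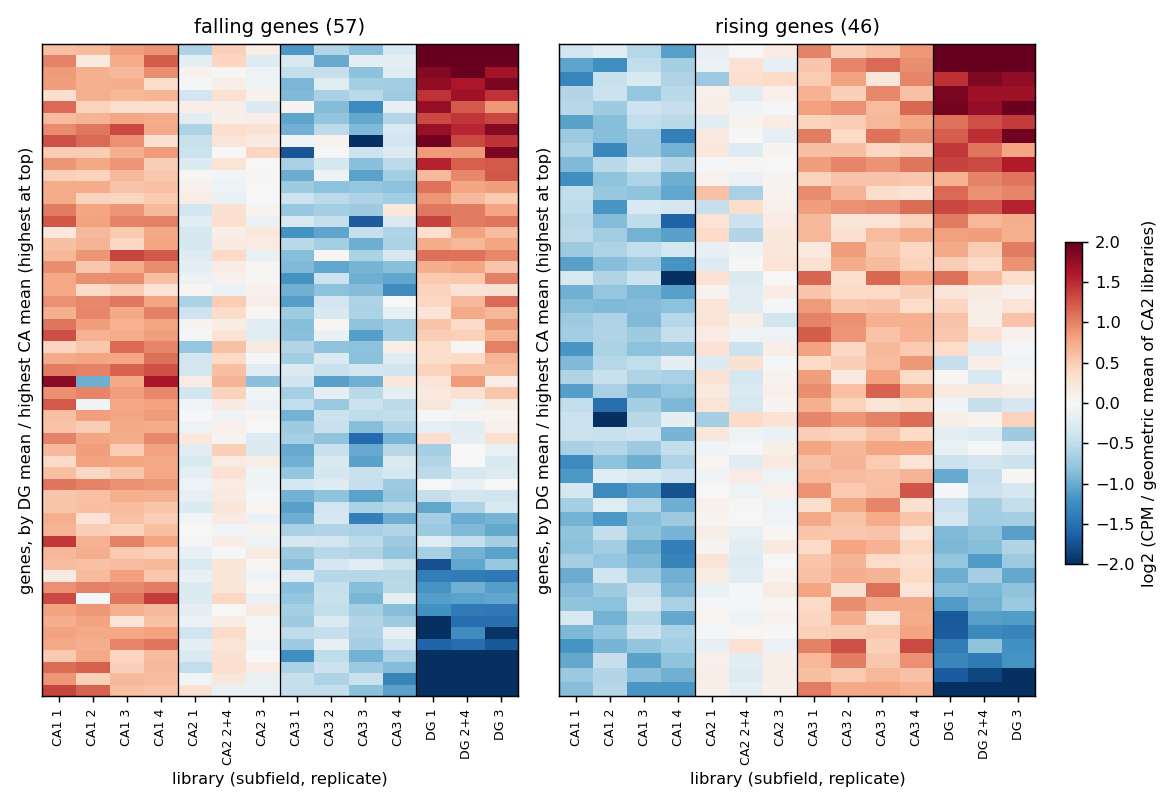
Each line is 1 graded gene and each column 1 of the 14 samples (a repeated pair is 1 column, marked 2+4); colour gives the log2 ratio of the CPM to the geometric mean of the CA2 samples, with values beyond 2 in either direction drawn at the limit. CA1 and CA3 take opposite colours in nearly all genes, as selected, while DG runs from far above to far below CA2, in order of its mean relative to the highest CA mean.

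The place of each library on the way from CA1 to CA3 was given per gene on the log scale, with 0 at the CA1 mean and 1 at the CA3 mean. In falling genes the median place was 0.675 in CA2 replicate 1, 0.390 in replicates 2 and 4 and 0.560 in replicate 3. In rising genes it was 0.599, 0.472 and 0.591. The repeated CA2 sample, which had the highest Wfs1 level, the highest granule cell marker sum and the lowest CA2 marker sum of its subfield, was nearest to CA1 in both groups. The part of neighbouring tissue in this place was not tested.

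In CA3 the median place of the falling genes was 1.05, 0.886, 1.08 and 0.934 in replicates 1 to 4, and replicate 2, with its Wfs1 level of 129 CPM, was the nearest to CA1. In rising genes the CA3 libraries lay at 1.02, 0.983, 1.01 and 0.981. The CA1 libraries lay between −0.027 and 0.046 in both groups, with replicate 2 the nearest to CA3 in each. In tissue captured in bulk, fewer cells of a type and less RNA per cell cannot be told apart, and a CA2 mean between its neighbours cannot be told apart from a mixture of cells with CA1-like and CA3-like levels.

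**Figure D3:**
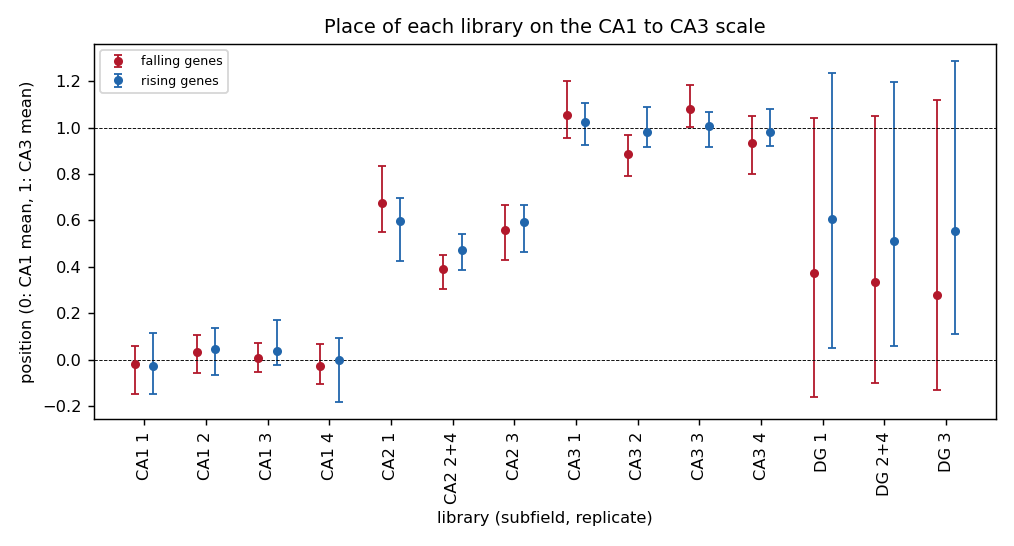
Points give the median over the 57 falling (red) or 46 rising (blue) genes of each sample's place on the log scale from the CA1 mean (0) to the CA3 mean (1), and whiskers the quartiles over genes. The CA2 samples spread from 0.390 to 0.675 in falling genes and from 0.472 to 0.599 in rising genes, and the DG quartiles run past 0 or 1.

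Without the repeated CA2 sample, 46 falling and 29 rising genes met the limits, of which 26 and 22 were also among those selected with it. Without CA3 replicate 2, the numbers were 59 and 46, of which 50 and 39 were shared. The repeated sample makes up 2 of the 4 columns in the CA2 mean, and fewer genes were kept without it than without the CA3 library. With repeated columns counted once, 57 falling and 44 rising genes met the limits, of which 43 and 38 were shared.

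Variation between libraries also differed between the groups. The median coefficient of variation of falling genes was 11.3% for CA1 and 12.7% for DG, against 17.8% for CA2 and 18.3% for CA3. In rising genes it was 17.7%, 13.9%, 13.6% and 13.8% for CA1, CA2, CA3 and DG, and in the other genes over the 10 CPM floor 11.5%, 11.1%, 12.8% and 10.98%. In both groups the CA subfield with the highest level had the lowest median of the CA subfields and the one with the lowest level the highest, with CA2 close to CA3. The selection set these levels apart, and counting error is larger at a low level. Its part in this order was not tested, and the other genes were not matched by level.

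The comparison with DG asks where granule cells stand relative to the pyramidal subfields for genes that are graded among them. The selection set only an upper limit on the DG mean, so the place of DG below that limit was not chosen. The CA1vsDG, CA2vsDG and CA3vsDG comparisons share the DG libraries, and the CA libraries in them took part in the selection. CA1 and CA3 are the ends of the selected range, so their differences from DG are drawn to opposite sides by the choice, and CA2vsDG is the comparison least tied to it.

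DG took every place relative to the CA range. Among falling genes, the DG mean was below all CA means in 15, within their range in 23 and above it in 19. Among rising genes the numbers were 11, 19 and 16. The ratio of the DG mean to the highest CA mean ran from 0.0146 to 2.70 in falling genes (median 0.687) and from 0.0257 to 2.70 in rising genes (median 0.626).

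In CA2vsDG, 19 of the 57 falling genes were higher in CA2 (33.3%, against 18.9% of all 17174 genes tested and 27.3% of the 9601 within the level limits) by edgeR's quasi-likelihood test at an adjusted p under 0.05. Another 20 were higher in DG (35.1%, against 16.5% and 19.2%). Of the 46 rising genes, 16 were higher in CA2 (34.8%) and 15 higher in DG (32.6%). Both groups thus split almost evenly in this fit. The median log2 fold change was −0.19 in falling genes and 0.10 in rising genes, beside 0.00 over all genes tested. Over the genes within the level limits it was 0.06. With replicate number as a block and the repeated pairs left out, 17 falling genes were higher in CA2 and 28 higher in DG. The same samples without the block gave 17 and 21, and the block over all 16 columns 23 and 23. Rising genes split 15 to 16 with the block and without the repeated pairs. CA2 levels took part in the selection, so nothing is read from the distance of the shares called to those of other genes.

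**Figure D4:**
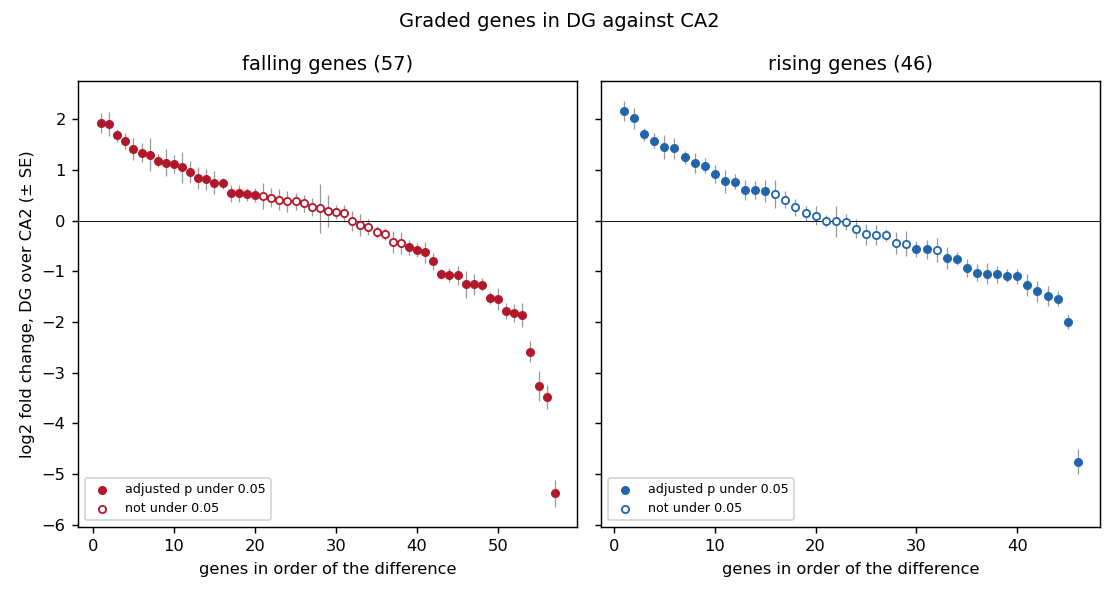
Points give the log2 fold change of DG over CA2 for each falling (left) and rising (right) gene, in order of size, with its standard error; filled points passed an adjusted p of 0.05 in edgeR's quasi-likelihood test. Of the falling genes 20 were higher and 19 lower in DG, and of the rising genes 15 were higher and 16 lower.

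In CA1vsDG, 29 of the falling genes were higher in CA1 (15.1% of all genes tested and 21.4% of those within the level limits) and 6 higher in DG (14.2% and 15.8%), with a median log2 fold change of 0.65. Of the rising genes, 6 were higher in CA1 and 25 in DG, with a median of −0.81. The count of 6 rising genes higher in CA1 became 3 without DG replicate 1. That of 6 falling genes higher in DG became 10 with replicate number as a block and the repeated pairs left out. The same samples without the block gave 8. Over all genes tested the median was −0.01, and over those within the level limits 0.02.

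In CA3vsDG the sides were exchanged. Of the falling genes, 14 were higher in CA3 (20.6% of all genes tested and 29.3% of those within the level limits) and 33 higher in DG (19.7% and 22.5%), with a median log2 fold change of −0.83. Of the rising genes, 29 were higher in CA3 and 7 in DG, with a median of 0.86. The median was −0.01 over all genes tested and 0.05 over those within the level limits.

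Put together per gene, DG was called above both CA1 and CA3 in 6 falling and 7 rising genes (11.2% of the 9601 genes within the level limits) and below both in 14 and 6 (16.1%). In the other genes DG lay between the ends or had a call against 1 end at most. In 6 more falling genes DG lay below CA1 and above CA3, with a call against each (0.656%), and in 8 rising genes above CA1 and below CA3 (0.729%). Of the falling genes, 21 had DG above CA3 with no call against CA1 (10.7%), 9 had DG below CA1 with no call against CA3 (4.57%), and 1 had no call against either end (39.7%). Of the rising genes, 10 had DG above CA1 with no call against CA3 (3.96%), and 15 had DG below CA3 with no call against CA1 (12.4%). The selection set CA1 and CA3 apart, so nothing is read from the distance of these counts to the shares among other genes. A missing call does not show that DG and that end had the same level.

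Without the repeated CA2 sample, CA2vsDG gave 17 falling genes higher in CA2 and 24 higher in DG, and 16 and 12 rising genes. Without CA3 replicate 2, CA3vsDG gave 13 falling genes higher in CA3 and 32 higher in DG, and 29 and 6 rising genes. The selected genes were held fixed in these counts.

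These 4 genes show DG below and above the CA subfields, each in 1 falling and 1 rising gene. Each had the smallest p in 1 comparison with DG, that with the CA end nearest to DG: ENSRNOG00000021663 among falling genes higher in CA3 than in DG, ENSRNOG00000014104 among falling genes higher in DG than in CA1, ENSRNOG00000012181 among rising genes higher in CA1 than in DG, and ENSRNOG00000014204 among rising genes higher in DG than in CA3. In all of them no library of 1 CA subfield overlapped with those of the next.

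ENSRNOG00000021663 fell from CA1 to CA3 and was far lower in DG. Its level was 1581, 1395, 938 and 919 CPM in CA1 replicates 1 to 4, 760 CPM in CA2 replicate 1, 559 CPM in CA2 replicates 2 and 4, 555 CPM in CA2 replicate 3, and 443, 446, 348 and 295 CPM in CA3. In DG it was 11.86 CPM in replicate 1, 21.97 CPM in replicates 2 and 4 and 14.9 CPM in replicate 3. CA1 replicates 1 and 2 were well above the other CA1 libraries, and every DG library was far below every CA library. The means were 1208 ± 332 (SD, n = 4), 625 ± 117 (n = 3), 383 ± 74.2 (n = 4) and 16.2 ± 5.19 CPM (n = 3) in CA1, CA2, CA3 and DG. The log2 fold change was 6.27 in CA1vsDG (SE 0.27, edgeR adjusted p = 2.52e-13), 5.38 in CA2vsDG (SE 0.27, adjusted p = 2.79e-12) and 4.69 in CA3vsDG (SE 0.25, adjusted p = 7.79e-12).

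ENSRNOG00000014104 also fell from CA1 to CA3, but DG held its highest level. It was at 169, 154, 148 and 179 CPM in CA1, 99.7 CPM in CA2 replicate 1, 95.9 CPM in CA2 replicates 2 and 4, 88.0 CPM in CA2 replicate 3, and 67.8, 68.5, 53.4 and 79.6 CPM in CA3. In DG it was at 338 CPM in replicate 1, 384 CPM in replicates 2 and 4 and 299 CPM in replicate 3. Every DG library exceeded every CA library, and the 3 CA subfields were narrow and separate. The means were 163 ± 14.2 (SD, n = 4), 94.5 ± 5.93 (n = 3), 67.3 ± 10.8 (n = 4) and 340.3 ± 42.6 CPM (n = 3). The log2 fold change was −0.97 in CA1vsDG (SE 0.12, edgeR adjusted p = 1.31e-06), −1.68 in CA2vsDG (SE 0.13, adjusted p = 1.82e-09) and −2.15 in CA3vsDG (SE 0.12, adjusted p = 1.20e-11).

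ENSRNOG00000012181 rose from CA1 to CA3 and was low in DG. Its level was 121, 148, 97.4 and 98.2 CPM in CA1, 236 CPM in CA2 replicate 1, 191 CPM in CA2 replicates 2 and 4, 234 CPM in CA2 replicate 3, and 446, 369, 374 and 355 CPM in CA3. In DG it was 5.41 CPM in replicate 1, 14.2 CPM in replicates 2 and 4 and 5.94 CPM in replicate 3. The repeated DG sample was the highest of its subfield, and still below every CA library. The means were 116 ± 23.8 (SD, n = 4), 220.2 ± 25.6 (n = 3), 386 ± 40.6 (n = 4) and 8.51 ± 4.91 CPM (n = 3). The log2 fold change was 3.77 in CA1vsDG (SE 0.24, edgeR adjusted p = 8.50e-11), 4.76 in CA2vsDG (SE 0.25, adjusted p = 7.12e-12) and 5.58 in CA3vsDG (SE 0.25, adjusted p = 5.99e-13). Leaving out each sample in turn gave 3.54 to 4.42, 4.53 to 5.41 and 5.36 to 6.24 in the same order. The value of 4.42 was that without DG replicates 2 and 4.

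ENSRNOG00000014204 rose from CA1 to CA3 and further in DG, at a low level. It was at 4.62, 5.17, 4.03 and 2.83 CPM in CA1, 5.38 CPM in CA2 replicate 1, 6.02 CPM in CA2 replicates 2 and 4, 6.72 CPM in CA2 replicate 3, and 11.98, 8.40, 9.05 and 10.98 CPM in CA3. In DG it was at 34.0 CPM in replicate 1, 25.2 CPM in replicates 2 and 4 and 24.6 CPM in replicate 3. The subfields did not overlap, although CA1 replicate 2 and CA2 replicate 1 were close. The means were 4.16 ± 1.003 (SD, n = 4), 6.04 ± 0.674 (n = 3), 10.1 ± 1.67 (n = 4) and 27.9 ± 5.28 CPM (n = 3), and its CA3 mean was the nearest above the floor of the selection among rising genes. The log2 fold change was −2.54 in CA1vsDG (SE 0.19, edgeR adjusted p = 1.13e-09), −2.01 in CA2vsDG (SE 0.20, adjusted p = 6.99e-08) and −1.27 in CA3vsDG (SE 0.17, adjusted p = 4.88e-06).

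**Figure D5:**
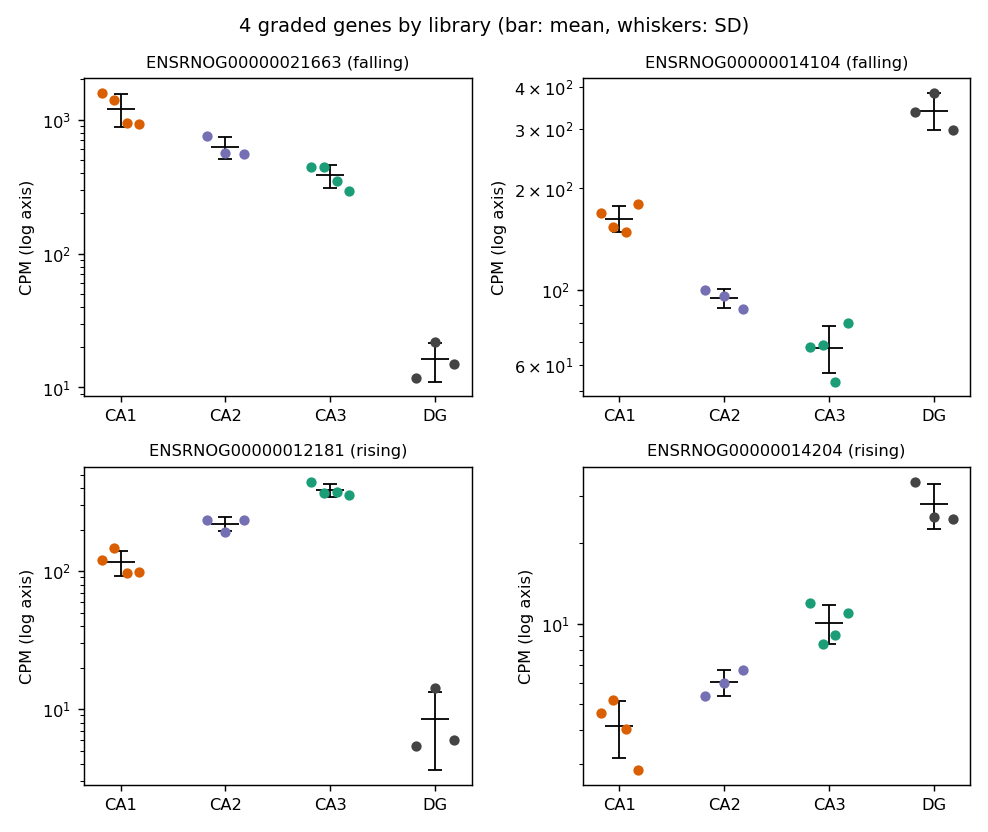
CPM of 4 graded genes in each sample on a log axis, with the mean (bar) and SD (whiskers) of each subfield; CA2 and DG have n = 3, the others n = 4. The left panels show DG far below the CA subfields (16.2 and 8.51 CPM on average) and the right panels DG above them (340.3 and 27.9 CPM).

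Levels relative to DG depended on the scaling of the libraries, mostly on the use of plain library sizes. With the median-of-ratios factors of DESeq2 in place of TMM, CA2vsDG still gave 19 falling genes higher in CA2 and 20 higher in DG. The rising genes split 16 to 16, and the median log2 fold change of genes within the level limits moved by −0.02. With plain library sizes in place of TMM factors, the median log2 fold change of genes within the level limits moved by −0.10 in CA1vsDG, −0.17 in CA2vsDG and −0.19 in CA3vsDG. In CA2vsDG, the called falling genes then divided into 17 higher in CA2 and 27 higher in DG, so that 38.6% of the calls were on the CA2 side, against 48.7% with TMM. The selection used plain CPM, and with TMM sizes in its place 39 falling and 55 rising genes met the limits, of which 36 and 40 were shared with the 57 and 46. Median-of-ratios factors gave 41 falling and 52 rising genes, of which 39 and 40 were shared. With either scaling the rising genes were thus the larger group. Column sums over all genes moved the numbers the other way, to 72 falling and 38 rising genes, of which 50 and 34 were shared.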

How the data were processed

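The deposited table holds counts per gene, which the authors made from stranded total RNA libraries; reads were aligned with STAR to the Rnor6 genome, and the counter and its strand setting are not given in the sources used here. Deposited tables of the authors' own comparisons (fold changes and p-values) were not used. CPM were computed on column sums without 2 genes that held 16.1 to 31.1% of each library's counts. Differences were tested with edgeR 4.0.16 (R 4.3.3, limma 3.58.1; quasi-likelihood F test, TMM, 1 fit to 14 samples, repeated columns summed) over the 17174 genes with more than 10 summed counts, with Benjamini-Hochberg adjustment; all 103 graded genes passed this filter. The procedure was tested on simulated counts for CA1vsDG. It recovered 35 of 67 changes of 1.5-fold, 65 of 67 of 2-fold and 66 of 66 of 4-fold, with 10 wrong calls. DESeq2 1.42.0 was an alternative. Tables were made with Python 3.11.15, numpy 2.4.6 and pandas 2.3.3, and plots with matplotlib 3.10.9. The genes to be described were to be those with symbols and high levels, those in 20 gene lists, those with the smallest p against DG, and those nearest the limits; with no symbols, 4 with the smallest p against DG at the nearest CA end were kept. Of 1142 genes in the lists, 4.64% had an identifier through the study's list of genes specific to 1 subfield, so the lists are void. 1 item is not reported here. The members and lists were chosen with earlier results of these data known. The sources do not say that a replicate number is 1 rat in all subfields, so subfields were compared as separate samples, and p-values measure the spread between these samples.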

Additional observations from a re-analysis of the deposited data

Results flagged for a closer look

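Among 30 groups of 4 samples examined for a library far from the others, 1 held one. It was CA3 for Wfs1, where replicate 2 was at 129 CPM, against 10.6, 15.7 and 16.97 CPM in replicates 1, 3 and 4. Chance flags about 1 in 20 groups. Wfs1 is a CA1 marker, with 786 to 993 CPM in CA1. The falling genes of the same library lay at a median place of 0.886 between CA1 (0) and CA3 (1), the lowest of the CA3 libraries. Its rising genes lay at 0.983, beside 0.981 in replicate 4, 1.01 in replicate 3 and 1.02 in replicate 1. Whether CA1 tissue was captured with this library was not tested.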

How the results depend on the processing

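Of the counts under all alternatives, 325 stayed within 1.5 times and 7 did not, and the log2 fold changes of the 4 genes described kept their direction and their call in all 288 recomputed values. The number of graded genes moved most with the limits of the steps: 149 falling and 108 rising genes with steps of 1.3- to below 2.2-fold, and 25 and 25 with steps of 1.5- to below 2-fold. Leaving out each sample in turn gave 46 to 69 falling and 29 to 51 rising genes, with 29 without CA2 replicates 2 and 4. The rising genes higher in CA1 than in DG numbered 3 to 6, with 3 without DG replicate 1. The causes of these changes were not tested. With the replicate block and the repeated pairs left out together, 10 falling genes were higher in DG than in CA1, in place of 6; the same samples without the block gave 8, and the block over all 16 columns gave 9. No other count moved by over 1.5 times in a fit with the block. Libraries of the same replicate number deviated together with r from −0.0802 to 0.683 (median 0.322, 14 pairs of libraries), and those of different numbers from −0.527 to 0.410 (median −0.121, 38 pairs), across genes, which are not independent replicates. Leaving out the repeated pairs without the block was chosen after seeing the data. The genes stay without symbols, CA2 and DG rest on 3 samples each, and 3 counts are worth up to 1.21 CPM, so genes near the floor of 10 CPM carry the larger counting error. Genes that share reads with near-identical copies were not examined.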
